A study of Mus musculus with 4 samples.

Results

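A set of 9 genes that carry hexoses into cells and break them down was followed across the 4 single-cell libraries of the series. They are the glucose transporter Slc2a1, the fructose transporter Slc2a5, hexokinase Hk2, the regulator Pfkfb3 and the enzymes Aldoa, Gapdh, Pgk1, Pkm and Ldha. The 9 were taken by name, for their place in the pathway, out of 27998 genes in the files, and each was found once. The libraries held microglia, the resident macrophages of the brain, from C57BL/6 mice that entered the study at postnatal day 21, so the groups at 1 week were older than those at 6 h. The cells of 4 mice were pooled in each library, and each of the 4 groups had 1 library. The irradiated mice had received a single 8 Gy dose to the whole brain, and cells were taken 6 h or 1 week later. The sham mice of the same 2 times received no dose. Brain is the source named in the labels, whereas hippocampal cells are named in the design text, and the region is not settled here.

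Hexoses enter cells through carriers of the Slc2a (GLUT) family, which pass sugar down its gradient. Slc2a1 encodes GLUT1, a glucose carrier found in most cells, and Slc2a5 encodes GLUT5, a fructose carrier that in the brain is known as a microglial gene. Hexokinase traps glucose as a phosphate, Pfkfb3 makes the metabolite that speeds up phosphofructokinase, and the later enzymes carry the carbon through to pyruvate, which lactate dehydrogenase can turn into lactate. Macrophages that are stimulated by microbial products are known for a larger flow through this route.

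Of 8486 barcodes, 8369 cells passed the filter, between 1582 and 2652 per library, and the design text states 8095. Each had 5675117 to 9736149 UMIs (molecular tags that count each captured transcript once), with medians of 3437 to 3594 per cell. Between 98.7% and 99.9% of the cells of a library carried at least 5 of 9 microglial markers. Lists of markers of other brain cells were also counted: those of astrocytes took 144 to 262 CPM (UMIs scaled to the library total), those of oligodendrocytes 108 to 122 and those of endothelium 29.6 to 41.8, although Cldn5 of endothelium had 1 UMI in all. Of the astrocyte UMIs, Slc1a3 alone gave 1389 of 1458 in sham and 1778 of 1927 in irradiated at 6 h. At 1 week it gave 798 of 820 in sham and 1377 of 1405 in irradiated. Pericyte and smooth muscle markers had 172 UMIs in sham at 6 h and at most 10 elsewhere, and oligodendrocyte precursor markers had 71 in irradiated at 6 h and at most 5 elsewhere. At most 1 UMI of neural, vascular, ependymal and erythroid markers was found in 1855 of 2652 cells in sham at 6 h, 1179 of 1986 in irradiated at 6 h, 1132 of 1582 in sham at 1 week and 1456 of 2149 in irradiated at 1 week. Slc1a3 counted toward this limit as well. Only 4 to 12 cell barcodes were shared by any pair of libraries. Since each group had 1 library, no difference could be tested against replicates. All intervals are 95% and cover counting error only, so the spread between mice is unknown, and where cells differ among themselves the intervals are too narrow. Levels are given as CPM, the UMIs of a gene scaled to the library total, and may be compared between libraries for 1 gene but not between genes.

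Between irradiated and sham cells of the same time, the largest difference among the 9 genes lay in Slc2a5 at 6 h. Over all 4 libraries the highest level was 3.61 times the lowest for Slc2a5 and 4.35 times for Pgk1. Slc2a5 had 538 CPM (interval 524 to 553) in the sham library at 6 h, 199 CPM (189 to 209) in the irradiated library at 6 h, 572 CPM (552 to 592) in the sham library at 1 week and 717 CPM (699 to 737) in the irradiated library at 1 week. The irradiated library at 6 h stood far below the other three, the irradiated library at 1 week stood highest, and no pair of intervals overlapped except those of the sham libraries. At 6 h Slc2a5 was 2.71-fold lower than in sham, a log2 fold of -1.44 (-1.52 to -1.35), and 0.604% of the 9934 genes measured lay lower. At 1 week the log2 fold to sham was 0.33 (0.26 to 0.39). Against the sham library of the other time, the log2 fold was -1.52 for irradiated at 6 h and 0.41 for irradiated at 1 week, so both directions held against either sham. The sham libraries themselves differed by 0.09 (0.02 to 0.15). Slc2a5 lies on chromosome 4 at 150119283 to 150144169 (+ strand, GRCm38) and is listed as ENSMUSG00000028976.

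Slc2a1 went the other way at 6 h. Its 368, 497, 247 and 351 UMIs came to 37.8 CPM (34.0 to 41.9) in sham at 6 h, 67.5 (61.7 to 73.7) in irradiated at 6 h, 43.5 (38.3 to 49.3) in sham at 1 week and 45.5 (40.9 to 50.5) in irradiated at 1 week. The irradiated library at 6 h stood above the others, whose neighbours in the order did not lie apart. Irradiated at 1 week over sham at 6 h had a log2 fold of 0.27 (0.05 to 0.48). The log2 fold at 6 h was 0.84 (0.64 to 1.03), a 1.79-fold higher level, and against the sham library of 1 week it was 0.63 (0.41 to 0.86). At 1 week it was 0.06 (-0.18 to 0.30). Slc2a1 (ENSMUSG00000028645) lies on chromosome 4 at 119108711 to 119137983 (+ strand). In all 11 alternative settings of cells and scaling the log2 fold at 6 h stayed between 0.77 and 0.90 for Slc2a1 and between -1.55 and -1.37 for Slc2a5.

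**Figure D1:**
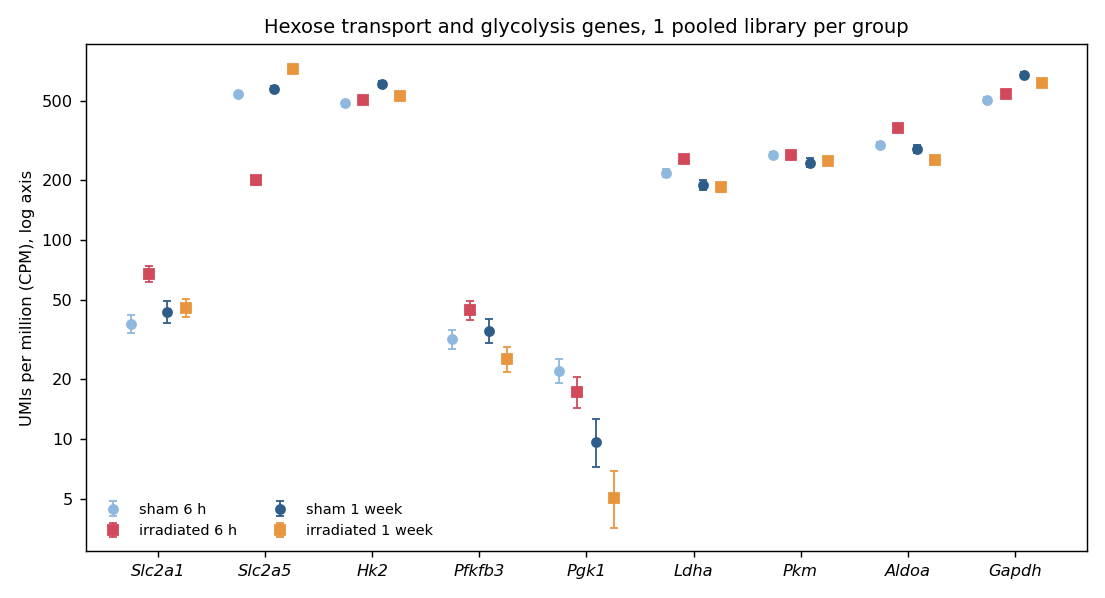
Level of each of the 9 genes in each library, in CPM on a log axis; circles are sham, squares irradiated, and bars are 95% counting intervals. Slc2a5 is lowest in irradiated cells at 6 h (199 CPM), where Slc2a1 (67.5 CPM) and Aldoa (366 CPM) are highest, and Pgk1 is lowest in irradiated cells at 1 week (5.05 CPM).

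The balance of both transporters therefore differed at 6 h. Within a library there were 14.2 Slc2a5 UMIs for each Slc2a1 UMI in sham at 6 h (12.8 to 15.9), 2.95 in irradiated at 6 h (2.66 to 3.27), 13.1 in sham at 1 week (11.5 to 15.0) and 15.8 in irradiated at 1 week (14.2 to 17.6). These ratios depend on how well each transcript is captured and are not ratios of molecules, but their change between libraries does not depend on the library total. The ratio was 4.83-fold lower (4.16 to 5.61) in irradiated than in sham cells at 6 h, 1.20-fold higher (1.01 to 1.43) at 1 week, and 0.922 (0.778 to 1.09) between the sham libraries. In every set of cells tried, these values stayed within their intervals. Per 1000 UMIs of the 5 enzymes Aldoa, Gapdh, Pgk1, Pkm and Ldha, Slc2a5 stood at 411, 138, 409 and 552 and Slc2a1 at 28.9, 46.9, 31.1 and 35.0 in the same order of libraries. Against the enzymes, too, the irradiated library at 6 h had the fewest Slc2a5 and the most Slc2a1 UMIs.

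At 6 h the number of cells in which the transcripts were caught differed in the same directions. To remove differences of depth, each cell was thinned to 2000 UMIs, and 90 to 189 shallower cells per library were left out. A Slc2a5 UMI was then found in 62.1% of sham cells at 6 h (60.2 to 64.0), 30.1% of irradiated cells at 6 h (28.1 to 32.2), 63.8% of sham cells at 1 week (61.2 to 66.3) and 71.0% of irradiated cells at 1 week (69.0 to 72.9). Without thinning the shares were 77.7%, 42.8%, 77.9% and 84.8%. Cells with a UMI carried 1.78, 1.39, 1.80 and 2.01 of them on average, so both the share of cells and the count within them were lowest in irradiated cells at 6 h. Cells with 2 or more Slc2a5 UMIs made up 30.8%, 8.70%, 31.2% and 40.4%. Slc2a1 was caught in 6.84%, 12.7%, 8.83% and 8.63% of thinned cells (12.4%, 20.6%, 13.3% and 14.9% without thinning), nearly always as a single UMI, and no order is read from the 2 shares at 1 week. The only cells with at most 2 of the 9 microglial markers were 5 cells of the irradiated library at 6 h (median 2029 UMIs, against 3512.5 in that library). Of these, 0 had a Slc2a5 UMI (0% to 52.2%), 1 had a Slc2a1 UMI and 4 a Gapdh UMI. Too few such cells were present to set a background level. Hbb-bs of red blood cells, a gene that microglia lack, had a UMI in 10 of 2652 sham cells at 6 h (0.377%) and in 0 cells of the other libraries.

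**Figure D2:**
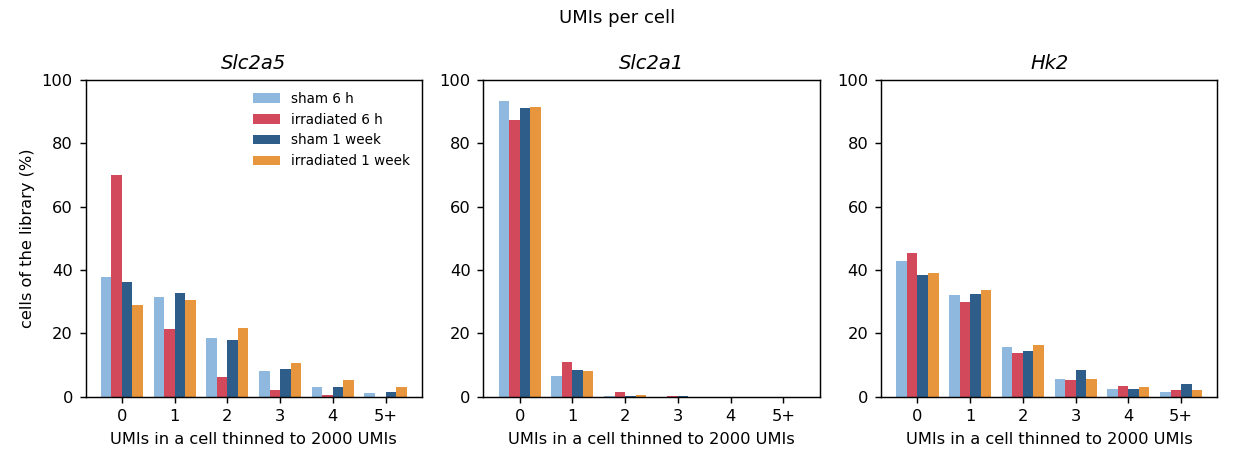
Share of cells (percent, y axis) by the number of UMIs in a cell thinned to 2000 UMIs (x axis), for Slc2a5, Slc2a1 and Hk2 in the 4 libraries. Cells with 0 Slc2a5 UMIs make up 69.9% of the irradiated library at 6 h and 29.0% to 37.9% of the others, while Hk2 differs little in this group and has a long tail in every library.

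Of the 9 microglial markers, 7 had a lower level in irradiated than in sham cells at 6 h and 2 a higher one. P2ry12, a purine receptor of resting microglia, stood at 6569, 2886, 5575 and 6950 CPM, and the 9 markers together at 56555, 48194, 53331 and 54783 CPM. The complement genes C1qa (10696 CPM in sham and 11552 in irradiated at 6 h) and C1qb (10391 and 10714) were the 2 higher ones, and Tmem119 was nearly level (2596 and 2509). Ribosomal protein genes took 9.61%, 10.7%, 9.93% and 9.25% of UMIs, and immediate early genes, which respond to cell isolation, took 0.981%, 0.837%, 1.48% and 1.26%. In cells that carried at least 5 microglial markers the log2 fold of Slc2a5 at 6 h was -1.43, and in cells without a UMI of other immune cell markers it was -1.41. The part of the lower P2ry12 level in the Slc2a5 result was not tested.

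Within each library Slc2a5 was higher in the cells that had more P2ry12. Thinned cells at or below their library's median of P2ry12 had 427 CPM of Slc2a5 in sham at 6 h, against 696 in cells above the median. The pairs were 112 and 313 in irradiated at 6 h, 464 and 689.8 in sham at 1 week, and 615 and 830.5 in irradiated at 1 week. The intervals of each pair lay apart. The irradiated cells above the median at 6 h (288 to 339) were below the sham cells of the same time at or below theirs (403 to 452). The medians were 5 P2ry12 UMIs in irradiated and 13 in sham cells at 6 h, so these groups were not matched for P2ry12. Ldha was arranged the other way, at 231 against 173 CPM in sham at 6 h, 307 against 191 in irradiated at 6 h, 198 against 173 in sham at 1 week and 190.3 against 156 in irradiated at 1 week, with intervals that lay apart at 6 h and overlapped at 1 week. Slc2a1 stood at 86.2 CPM (73.7 to 100.2) in irradiated cells at 6 h at or below the median and 55.7 (45.4 to 67.6) above it, and in the other libraries its intervals overlapped. Cells were divided here by a measured gene of the same counts, so these values are a description of the cells.

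**Figure D3:**
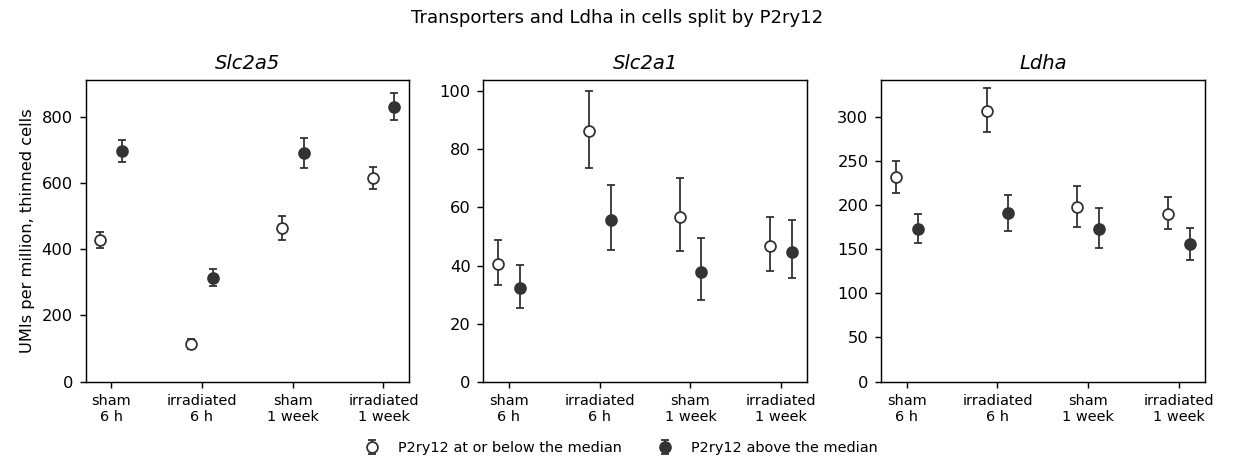
Level in thinned cells (CPM, y axis) of Slc2a5, Slc2a1 and Ldha in cells at or below (open) and above (filled) their library's median of P2ry12, with 95% counting intervals. Slc2a5 is higher in the filled group of each library (696 against 427 CPM in sham at 6 h) and Ldha lower (173 against 231 CPM).

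Hk2, the hexokinase that commits glucose to the cell, was nearly level at 6 h. It stood at 484 CPM (469.9 to 498) in sham at 6 h, 503 (487 to 519.6) in irradiated at 6 h, 607 (587 to 628) in sham at 1 week and 525 (509 to 541) in irradiated at 1 week. The sham library at 1 week was highest and lay apart from the next, irradiated at 1 week. Irradiated at 6 h lay apart neither from irradiated at 1 week above it nor from sham at 6 h below it. Irradiated at 1 week was above sham at 6 h, with a log2 fold of 0.12 (0.06 to 0.18). The log2 fold to sham was 0.06 (-0.01 to 0.12) at 6 h and -0.21 (-0.28 to -0.15) at 1 week, and 0.33 (0.26 to 0.39) between the sham libraries. Its UMIs were spread unevenly over cells: the variance of thinned UMIs per cell was 1.44, 1.76, 1.92 and 1.61 times the mean, above 91.3% to 96.6% of genes of like mean in the same library. A thinned cell held up to 17 Hk2 UMIs, and up to 8 of Slc2a5. In sham at 6 h the 101 cells with at least 4 Hk2 UMIs had 604 CPM of Slc2a5 (502 to 721) and 529.7 CPM of Gapdh (434 to 640.1), and the 1093 cells with none had 569 (538 to 602) and 465 (437 to 495), so these intervals overlapped. They overlapped for both genes in the other libraries too, except for Gapdh in irradiated at 1 week, which had 452 CPM (366 to 553) in the 105 cells with at least 4 Hk2 UMIs and 615 (578 to 655) in the 797 cells with none. Hk2 (ENSMUSG00000000628) lies on chromosome 6 at 82725025 to 82774454 (- strand).

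Pfkfb3, the enzyme that sets the pace of phosphofructokinase, was sparse. Its 309, 327, 199 and 195 UMIs gave 31.7 CPM (28.3 to 35.5) in sham at 6 h, 44.4 (39.7 to 49.5) in irradiated at 6 h, 35.1 (30.4 to 40.3) in sham at 1 week and 25.3 (21.8 to 29.1) in irradiated at 1 week. Irradiated cells were thus highest at 6 h and lowest at 1 week, with the sham libraries between them and not apart from each other. The log2 fold was 0.48 (0.26 to 0.71) at 6 h and -0.47 (-0.76 to -0.18) at 1 week, both short of 1.5-fold. Pfkfb3 (ENSMUSG00000026773) lies on chromosome 2 at 11471433 to 11554077 (- strand).

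The later enzymes differed less, apart from Pgk1. Aldoa, the aldolase that splits the sugar, had 300.1 CPM (289 to 311) in sham at 6 h, 366 (352 to 379.8) in irradiated at 6 h, 286 (273 to 301) in sham at 1 week and 252 (241 to 263) in irradiated at 1 week. It was highest in irradiated cells at 6 h and lowest in irradiated cells at 1 week, as Pfkfb3 was, with log2 folds of 0.29 (0.21 to 0.36) and -0.19 (-0.28 to -0.09). Gapdh, which makes the first high-energy intermediate, had 505, 536, 670.1 and 611 CPM, with log2 folds of 0.09 (0.03 to 0.15) at 6 h and -0.13 (-0.19 to -0.07) at 1 week. Its difference between the sham libraries, 0.41 (0.35 to 0.47), exceeded both. Pkm, the muscle-type pyruvate kinase, had 266, 265, 244 and 248 CPM and was the most even of the 9, with log2 folds of -0.01 (-0.09 to 0.08) and 0.02 (-0.08 to 0.12). Ldha, which makes lactate, had 217, 254, 188 and 184 CPM, with log2 folds of 0.23 (0.14 to 0.32) and -0.03 (-0.15 to 0.08). The later sham library differed from the earlier one by -0.20 (-0.31 to -0.09) for Ldha, close in size to the fold at 6 h. Ldha and Aldoa were each highest in irradiated cells at 6 h, and Pkm was not higher there. Aldoa (ENSMUSG00000030695) and Ldha (ENSMUSG00000063229) lie on chromosome 7 at 126795234 to 126800751 (- strand) and at 46841475 to 46855627 (+ strand). Gapdh (ENSMUSG00000057666) lies on chromosome 6 at 125161715 to 125166467 (- strand) and Pkm (ENSMUSG00000032294) on chromosome 9 at 59656368 to 59679375 (+ strand).

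Pgk1, the kinase that yields the first ATP of the route, had larger log2 folds between the times than between the treatments. Its 214, 127, 55 and 39 UMIs gave 22.0 CPM (19.1 to 25.1) in sham at 6 h, 17.2 (14.4 to 20.5) in irradiated at 6 h, 9.69 (7.30 to 12.6) in sham at 1 week and 5.05 (3.59 to 6.91) in irradiated at 1 week. Both libraries of 1 week lay below both libraries of 6 h, and at each time the irradiated library was lower. The log2 fold of irradiated over sham was -0.35 (-0.68 to -0.03) at 6 h and -0.94 (-1.57 to -0.32) at 1 week, and that of the later over the earlier sham library was -1.18 (-1.64 to -0.75). The intervals of the last 2 overlapped, so time and treatment are not ranked at 1 week. Pgk1 (ENSMUSG00000062070) lies on the X chromosome at 106187100 to 106203699 (+ strand). The annotation has 3 genes named as its copies, of which 1, Pgk1-rs7, is in the files with 5, 4, 2 and 1 UMIs. Names that mark numbered copies (ps or rs after the symbol) number 2 each for Ldha, Aldoa and Gapdh, none of them in the files. The Aldoa retrogene Aldoart1 is in the files with 4 UMIs in sham at 6 h and 0 elsewhere, and how reads shared with such copies were counted is not given in the sources used here. Gapdh also overlaps Iffo1 on the opposite strand, which had 3102 UMIs in all.

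**Figure D4:**
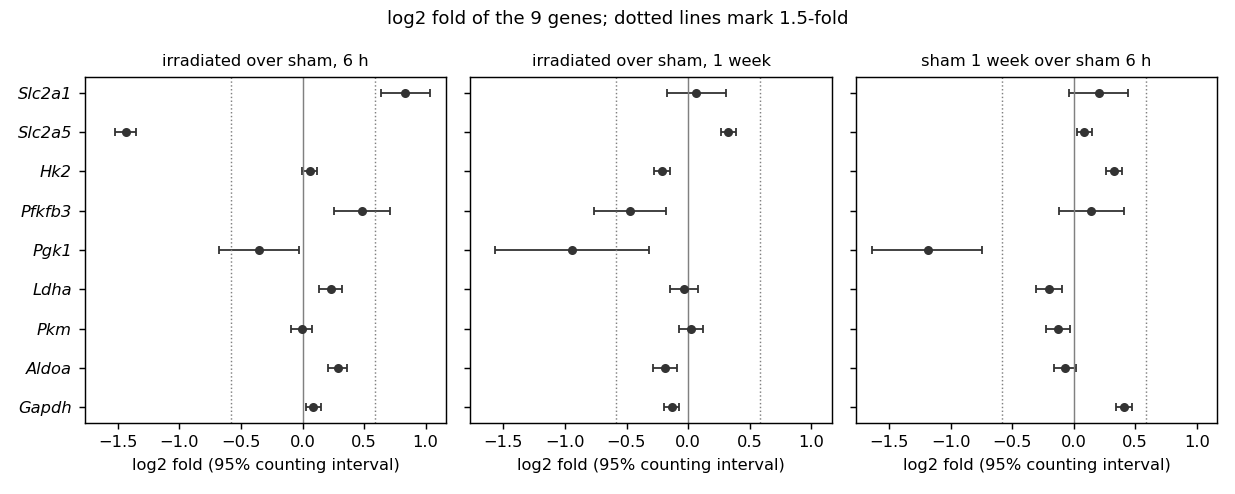
Log2 fold of the 9 genes (x axis, with 95% counting intervals) for irradiated over sham at 6 h, the same at 1 week, and sham at 1 week over sham at 6 h; dotted lines mark 1.5-fold. At 6 h Slc2a5 (-1.44) and Slc2a1 (0.84) lie outside the lines, at 1 week Pgk1 alone (-0.94), and between the sham libraries Pgk1 alone (-1.18).

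At 6 h 1 of the 9 genes, Slc2a1, was at least 1.5-fold higher and 1, Slc2a5, at least 1.5-fold lower, where 8.97% and 9.31% of the 9934 genes measured passed the same fold. The median log2 fold was 0.09 for the 9 genes and -0.06 for all genes. At 1 week 0 were higher and 1, Pgk1, was lower, beside 4.01% and 3.12% of 9518 genes, with medians of -0.13 and 0.04. Between the sham libraries 0 were higher and 1, again Pgk1, was lower, beside 2.89% and 4.89% of 9728 genes, with medians of 0.09 and -0.05. The counts were thus close to those of all genes, and the 9 did not differ as a block. For irradiated at 1 week over irradiated at 6 h, 1 was higher (Slc2a5, log2 fold 1.85) and 2 were lower (Pfkfb3 at -0.81 and Pgk1 at -1.77), beside 9.3% and 10.5% of 9761 genes. For irradiated at 6 h over sham at 1 week, 2 were higher (Slc2a1 and Pgk1) and 1 lower (Slc2a5), beside 11.8% and 9.51% of 9527 genes. For irradiated at 1 week over sham at 6 h, 0 were higher and 1, Pgk1, was lower, beside 3.81% and 4.83% of 9917 genes. These comparisons share libraries and do not add to one another as evidence.

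Together the 5 later enzymes took 1309.6 CPM (1287 to 1332) in sham at 6 h, 1438 (1411 to 1466) in irradiated at 6 h, 1399 (1368 to 1429.7) in sham at 1 week and 1300.4 (1275 to 1326) in irradiated at 1 week. The irradiated library was higher than the sham library of its own time at 6 h and lower at 1 week. Against the sham library of the other time the intervals overlapped in both cases. The intervals of the sham libraries themselves lay apart. The shares of thinned cells with a UMI were 40.8%, 48.4%, 40.7% and 38.6% for Aldoa, 31.5%, 35.1%, 29.4% and 28.7% for Ldha, and 58.4%, 60.9%, 70.3% and 64.5% for Gapdh. For Pkm they were 38.6%, 38.2%, 37.0% and 37.7%. Pgk1 was caught in 3.83%, 3.11%, 2.01% and 0.833% of cells and Pfkfb3 in 6.14%, 8.28%, 6.25% and 5.15%. At this depth of thinning the shares of these 6 genes had the same order over the libraries as the levels. For Pkm all intervals overlapped. Thinned to 1500 UMIs, its shares were 30.3%, 29.0%, 28.3% and 31.2%, another order, so none is read for Pkm. Hk2 was caught in 57.3%, 54.7%, 61.5% and 60.9% of cells, so its share was lower in irradiated than in sham cells at 6 h (intervals 52.4 to 57.0 and 55.3 to 59.2) while its level was not, and no order is read from it.

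Cells with transcripts of the G2 and M phases had more Gapdh in 3 of the 4 libraries. Of the thinned cells, 25 in sham at 6 h and 32 in irradiated at 1 week carried at least 2 UMIs of a list of 15 G2/M genes, and 7 did in each of the other libraries. In these cells Gapdh had 960 CPM (708 to 1273) in sham at 6 h and 1188 (936 to 1486) in irradiated at 1 week, against 470.1 (451 to 489.9) and 569.9 (546 to 594) in cells with no such UMI. The 7 cells of sham at 1 week had 1357 CPM (817 to 2119) and the 7 of irradiated at 6 h had 143 (17.3 to 516), against 646 (616 to 677) and 512 (489 to 536). Slc2a5 in the cells of sham at 6 h and irradiated at 1 week had 360 CPM (213 to 569) and 375 (240.3 to 558) against 559.6 (539 to 581) and 716 (689.6 to 743), so its intervals lay apart in irradiated cells at 1 week and overlapped in the 25 cells of sham at 6 h. Without thinning, 48 cells of sham at 6 h carried at least 2 such UMIs and had 397 CPM of Slc2a5 (322 to 483), against 542 (527 to 557) in the rest, and the intervals lay apart there too. The G2/M list took 115, 32.0, 42.1 and 210 CPM in the 4 libraries. Without cells that had a UMI of this list, the log2 fold of Slc2a5 was -1.46 at 6 h and 0.33 at 1 week.

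The transporters differed in opposite directions at 6 h, Hk2 was nearly level there and Pgk1 differed between times. For this reason the bases before the start sites of these 4 genes are shown. They are the 250 bases upstream of the RefSeq start (GRCm38.p6), read in the direction of the gene. Capitals mark ACGTG or GCGTG on either strand, the core of the site bound by hypoxia-inducible factors.
Slc2a5, chr4:150119094-150119343, + strand: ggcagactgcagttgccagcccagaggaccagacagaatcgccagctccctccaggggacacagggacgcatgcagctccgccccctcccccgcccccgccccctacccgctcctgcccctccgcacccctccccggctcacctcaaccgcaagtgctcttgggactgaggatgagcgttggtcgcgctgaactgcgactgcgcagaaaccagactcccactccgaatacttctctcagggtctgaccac
Slc2a1, chr4:119108495-119108744, + strand: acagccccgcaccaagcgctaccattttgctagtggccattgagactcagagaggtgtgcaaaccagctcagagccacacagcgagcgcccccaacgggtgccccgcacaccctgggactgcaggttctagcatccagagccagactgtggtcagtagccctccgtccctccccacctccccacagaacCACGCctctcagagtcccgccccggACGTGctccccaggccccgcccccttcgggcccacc
Hk2, chr6:82774455-82774704, - strand: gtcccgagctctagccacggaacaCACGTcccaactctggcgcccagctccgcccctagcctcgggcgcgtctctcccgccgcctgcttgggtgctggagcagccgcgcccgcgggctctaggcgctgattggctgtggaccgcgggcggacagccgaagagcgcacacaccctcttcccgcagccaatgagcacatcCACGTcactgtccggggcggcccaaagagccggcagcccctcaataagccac
Pgk1, chrX:106186850-106187099, + strand: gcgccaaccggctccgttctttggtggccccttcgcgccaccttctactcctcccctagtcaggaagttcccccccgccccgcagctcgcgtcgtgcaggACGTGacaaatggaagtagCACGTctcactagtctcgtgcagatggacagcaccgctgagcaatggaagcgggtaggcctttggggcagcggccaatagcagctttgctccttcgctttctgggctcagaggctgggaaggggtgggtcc

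In the Slc2a5 window neither core occurred. In the Slc2a1 window ACGTG began 36 bases before the start and GCGTG lay on the other strand at 61 bases. Hk2 had 2 ACGTG cores on the other strand, at 226 and 52 bases, and Pgk1 had 2, at 150 and 131 bases. Of the 9 genes 8 held a core in at least 1 of their windows (11 of 14 windows). Windows 2 and 3 of Aldoa overlap, and the ACGTG counted in each is the same site. Ldha had 5 ACGTG matches in its first window, 4 of them within 2 copies of CACGTG, which reads the same on both strands. A window of this length held ACGTG in 16.6%, GCGTG in 28.2% and either in 38.6% of 32851 RefSeq windows. GAGGAA, part of the site of the microglial factor PU.1, was found in 1 window of Pfkfb3 and 1 of Aldoa, among the 14 windows. It was found in 23.3% of all RefSeq windows. Some of the 9 genes had more than 1 window, so counts of genes and shares of windows are not like measures. A match of letters is a description of the sequence and shows no binding, and the annotated gene starts of Slc2a5 and Slc2a1 in GENCODE lie within the printed windows.

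Other transporters differed too. The list of 13 genes also held Slc5a1, Slc5a2 and Slc37a4, which are outside the Slc2a family. Of the 13, 5 were measured at 6 h (at least 50 UMIs over both libraries), Slc37a4 among them, and 2 were at least 1.5-fold higher. Slc2a9, which carries urate and hexoses, had 50, 166, 29 and 97 UMIs, or 5.14, 22.5, 5.11 and 12.6 CPM, with log2 folds of 2.13 (1.67 to 2.62) at 6 h and 1.30 (0.69 to 1.95) at 1 week. It was higher in irradiated cells at both times, with 1.17%, 5.27%, 0.790% and 2.79% of thinned cells. Slc2a6, a carrier of lysosomal membranes, had 12, 53, 9 and 6 UMIs, with a log2 fold of 2.55 (1.62 to 3.59) at 6 h. Slc2a3, the high-affinity glucose carrier GLUT3, had 478, 485, 39 and 54 UMIs, or 49.1, 65.8, 6.87 and 7.00 CPM. It was higher in irradiated than in sham cells at 6 h, short of 1.5-fold, with a log2 fold of 0.42 (0.24 to 0.61), and the value was 0.03 (-0.59 to 0.66) at 1 week. The later sham library lay further below the earlier one, at -2.84 (-3.35 to -2.36). The list of 7 monocyte markers was likewise lower at 1 week, at 41.9, 60.1, 15.3 and 17.2 CPM (Plac8 278, 187, 34 and 56 UMIs, Ly6c2 at 0 in all). So was that of 8 border macrophage markers, at 47.2, 48.9, 20.6 and 24.6 CPM (Pf4 130, 156, 7 and 19 UMIs). Not every gene of these lists followed. The monocyte marker Ccr2 had 21, 24, 14 and 37 UMIs and the border macrophage marker Mrc1 had 200, 84, 71 and 159. In cells without a UMI of any other immune cell marker Slc2a3 stood at 48.1, 65.2, 7.03 and 7.40 CPM.

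Among 12 other glycolytic enzymes measured at 6 h, 1 was higher and 3 were lower by 1.5-fold. The lower ones were the hexokinases Hk1 (log2 fold -0.71, -1.14 to -0.30) and Hk3 (-0.76, -0.98 to -0.55) and the enolase Eno3 (-1.16, -1.57 to -0.77). Eno3 was lower at 1 week as well (-1.01, -1.42 to -0.59), the only 1 of 10 measured then. Aldoc, an aldolase of astrocytes, was higher at 6 h on 28 and 51 UMIs (1.27), but in cells with at least 5 microglial markers the value was -0.54. Astrocyte markers took 149.8, 262, 144 and 182 CPM, mostly from Slc1a3. Of the 3 hexokinases measured, Hk2 alone was nearly level at 6 h, at 0.06.

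Counts past 1.5-fold in the lists around the route stand beside 8.97% of all genes higher and 9.31% lower at 6 h, and 4.01% and 3.12% at 1 week. At 6 h several lists had counts above those shares, on few genes each. Such counts of higher genes were 2 of 5 other transporters, 2 of 17 hypoxia genes and 1 of 10 each of glycogen and pentose phosphate genes. Such counts of lower genes were 3 of 12 other enzymes, 4 of 17 hypoxia genes and 1 of 5 regulators. So were 2 of 10 glycogen genes and 2 of 16 genes of lactate and pyruvate use. The medians of the lists ran from -0.37 (regulators) to 0.42 (other transporters) at 6 h and from -0.17 (other enzymes) to 0.33 (other transporters) at 1 week, beside -0.06 and 0.04 over all genes. Of 5 measured regulators at 6 h only Pck2 of phosphoenolpyruvate synthesis was past 1.5-fold (-1.15, -1.46 to -0.84), and 0 of 4 at 1 week. Of 4 genes of fructose metabolism, 0 passed at 6 h. The ketohexokinase Khk, which starts the use of fructose, had 121, 94.1, 116 and 118 CPM, with a log2 fold of -0.36 at 6 h and 0.03 at 1 week. At 1 week Tkfc, which phosphorylates the products of fructose cleavage, was higher (0.71, 0.09 to 1.36), but the value was 0.45, short of 1.5-fold, in cells without a UMI of other immune cell markers. Among 16 genes of lactate and pyruvate use at 6 h, the pyruvate dehydrogenase kinases Pdk1 (-0.84, -1.02 to -0.65) and Pdk2 (-0.68, -1.25 to -0.14) were lower and 0 were higher; Pdk2 was short of 1.5-fold in cells without other immune markers (-0.51). Of 15 at 1 week, the lactate carrier Slc16a1 was lower (-0.83, -1.43 to -0.25), but short of 1.5-fold in cells with at most 1 UMI of neural, vascular, ependymal and erythroid markers (-0.51). Prps2, which makes the ribose precursor of nucleotides, was the 1 of 10 pentose phosphate genes past the fold at 6 h, with 65.3 CPM in sham and 138 in irradiated cells (1.08, 0.94 to 1.23), and 0 of 10 were past it at 1 week.

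Of the glycogen genes, the phosphorylases Pygl (-0.76) and Pygb (-0.60) were lower at 6 h, and Pygb was short of 1.5-fold in 7 of 11 alternative settings of cells and scaling (as far as -0.49). At 1 week the phosphorylase Pygm was higher (1.02, 0.38 to 1.70), 1 of 9. Of 17 hypoxia response genes at 6 h, 2 were higher and 4 lower. The higher ones were Hif1a, the oxygen-regulated factor itself, with 52.7, 99.5, 49.9 and 43.0 CPM (0.92, 0.75 to 1.08), and Ddit4, an inhibitor of mTOR that p53 also drives, with 134, 293, 37.9 and 113 CPM (1.13 at 6 h and 1.58 at 1 week). The lower ones were Pdk1, Egln1 (-0.79), Vhl (-0.68) and Mxi1 (-0.59). Mxi1 was only just past 1.5-fold, and it was not among the log2 folds recomputed in the alternative settings. Slc2a1, Hif1a and Ddit4 were each highest in irradiated cells at 6 h, and so were Slc2a3, Pfkfb3, Ldha and Aldoa. The former were at least 1.5-fold above sham there and the latter were not. Pgk1 was lower than in sham at 6 h, by less than 1.5-fold. Whether Hif1a had a part in these levels was not tested. Of 12 glucose sensing genes, Arrdc4 was lower at 6 h (-0.74, -1.19 to -0.31). At 1 week Prkaa1 of the energy sensor AMPK was higher (0.77, 0.11 to 1.47) and Myc lower (-0.80, -1.13 to -0.48).

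**Figure D5:**
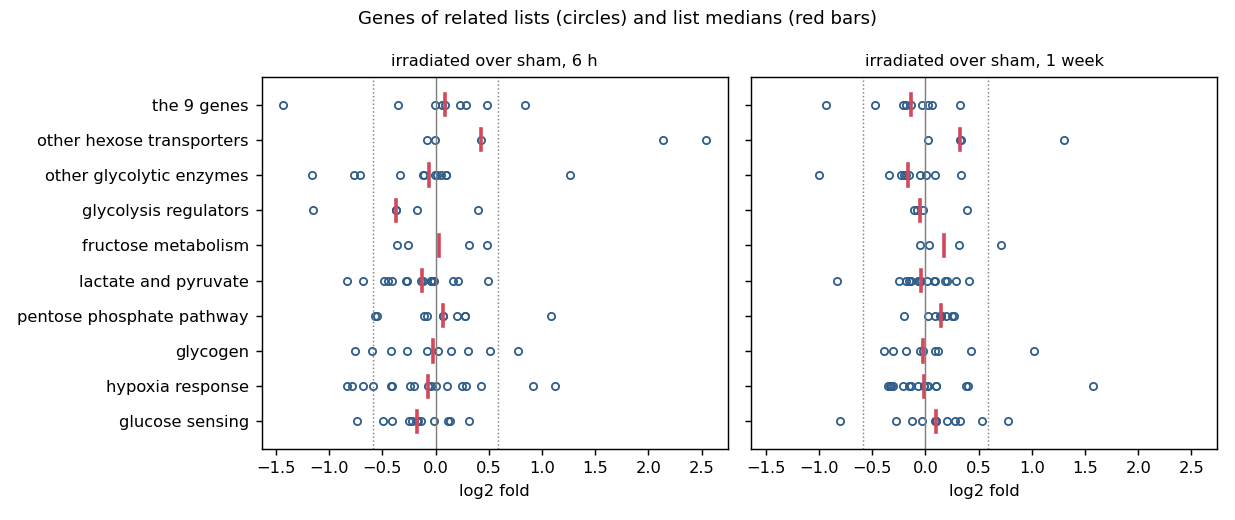
Log2 fold of each measured gene of the 9 and of related lists (circles) with the list median (red bar), irradiated over sham at 6 h and at 1 week; dotted lines mark 1.5-fold. Most circles lie within the lines, and the list of the 9 genes has the lowest circle of the 6 h panel, Slc2a5 at -1.44.

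The genes nearest to Slc2a5 over the 4 libraries were Hist1h3a, Lig1, Khdrbs3, Tmem52 and Gm43603, at distances of 0.211 to 0.276 between centred log2 levels among 8559 genes with at least 200 UMIs. Tmem52 had 35.7, 12.6, 35.8 and 37.2 CPM. Nearest to Slc2a1 were Ccdc58, Pno1, Ipo4, Actg1 and Sat1, at 0.0491 to 0.0898, and Actg1 had 1086, 1996, 1323 and 1414 CPM. Nearest to Hk2 were Acvr1, Spata2, Ctbp2, Dcaf7 and Zc3h4, at 0.0153 to 0.0438. With 4 points each, such likeness is a description of these libraries.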

How the data were processed

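The values the authors deposited are raw counts of UMIs for each gene in each barcode. Per the submitters' processing notes they come from Cell Ranger 2.0 and mm10. For the barcode threshold, annotation release and strand in counting, the entry is: not given in the sources used here. Cells were kept from 1000 UMIs and 500 genes with at most 10% mitochondrial UMIs. No doublet caller was run and no doublets were removed, and the deepest cells were left out as an alternative. Counts were summed per library and scaled to all UMIs (CPM) in Python 3.11.15 with numpy 2.4.6, scipy 1.17.1, pandas 2.3.3 and matplotlib 3.10.9. Cells were not clustered. Level intervals are exact Poisson, folds exact conditional binomial, shares Clopper-Pearson. A gene counted as measured at 50 UMIs, summed over the compared libraries, and as higher or lower from 1.5-fold. On counts simulated with Poisson error alone the fold interval held the truth for 95.7% of 9934 genes at 6 h. Spread between cells or libraries was not simulated, so this checks the calculation only. Coordinates are from GENCODE vM21 (27645 identifiers matched), promoters from RefSeq. Of each list, up to 5 genes past 1.5-fold are named per time; Slc2a3, Khk and Mxi1 were named after their values were seen. Of the list symbols, 5 (1 of fructose metabolism and 4 of lymphocyte markers) were not matched. Members and lists were chosen with earlier results of these data known. A result on 1 list gene is not reported here.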

Additional observations from a re-analysis of the deposited data

Results flagged for a closer look

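For 4 of the 9 genes the irradiated library lay on opposite sides of its sham library at 6 h and at 1 week, with counting intervals that left out 0 at both times. The share of all genes that did so is not given here, so the count is not read as a trait of the 9. With 1 library per group the difference between the times was not tested. Slc2a5, the fructose transporter, had log2 folds of -1.44 at 6 h and 0.33 at 1 week, apart by 1.76 (1.66 to 1.87). Pfkfb3, the regulator of phosphofructokinase, had 0.48 and -0.47, apart by -0.96 (-1.32 to -0.59). Aldoa, the aldolase, had 0.29 and -0.19, apart by -0.47 (-0.59 to -0.35). Gapdh had 0.088 and -0.13, values smaller than its difference of 0.41 between the sham libraries.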

How the results depend on the processing

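Each library pools 4 mice, so differences between mice, cages or isolations cannot be told apart from those between groups, and counting intervals do not cover them. No paired analysis was possible because each group has 1 library and its replicate number is only a name. Cell sets and scalings gave 616 recomputed log2 folds, of which 608 stayed within their counting interval, 7 moved by more and 1 turned: Aldoc at 6 h, at -0.54 in cells with at least 5 microglial markers. Of 31 log2 folds past 1.5-fold that were recomputed, 26 stayed past it in all 11 settings of cells and scaling; those of Aldoc (also 0.32 in cells with at most 1 UMI of neural, vascular, ependymal and erythroid markers), Pdk2 (-0.51 and, as a mean over cells, -0.58), Pygb, Slc16a1 and Tkfc (0.45 and, without G2/M cells, 0.58) did not. The log2 folds of Pkm, all within 0.06 of 0 between treatments, changed sign under some scalings, and Slc2a1 at 1 week was -0.10 in cells without other immune markers. Slc2a5 at 6 h was -1.55 in cells with at most 1 UMI of neural, vascular, ependymal and erythroid markers; in that set Pfkfb3 joined Pgk1 at 1 week, giving 2 lower genes among the 9. From 200 UMIs Pgk1 dropped out, leaving 0. At 2-fold in place of 1.5-fold, 0 of the 9 were higher at 6 h and 0 lower at 1 week. Over all genes at 6 h, 891 higher and 925 lower became 536 and 472 from 200 UMIs and 417 and 215 at 2-fold. At 1 week, 382 and 297 became 616 and 485 from 20 UMIs, 102 and 98 from 200, and 141 and 53 at 2-fold. Between the sham libraries, 281 and 476 became 448 and 731, 107 and 169, and 52 and 137. The 24 recomputed ratios of Slc2a5 to Slc2a1 stayed within their counting intervals. Shares of cells moved with the thinning depth in 69 of 72 values. The cell sets without other immune or G2/M markers were chosen after seeing the data. Pgk1, Slc2a6 and Aldoc rest on few UMIs.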
